A study of Homo sapiens with 12 samples.

Results

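The change of 5-methylcytosine (5mC) was described gene by gene across the differentiation of HL-60, an established human promyelocytic leukemia line that can mature toward neutrophil-like cells. Genes were the symbols to which listed regions of methylated DNA were assigned: the counts of all regions inside a gene, or up to 5000 bases upstream of its start, were summed. This gave 12637 genes of the 20712 that carry a listed region of either mark in the series, and 4645 of them held 3 or more listed 5mC regions and were ranked by their change. Undifferentiated HL-60 cells were viable cells negative for CD11b, a surface integrin of maturing myeloid cells. Differentiated cells had been grown for 7 days with 1.5% (211 mM) dimethyl sulfoxide (DMSO) and were sorted as viable and positive for CD11b, so that treatment and sort cannot be told apart. Each state had 3 biological replicates of the same line, which gave 6 methylated DNA immunoprecipitation (MeDIP) libraries, and the same DNA preparations gave 6 libraries of 5-hydroxymethylcytosine (5hmC).

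In mammals 5mC is placed on cytosines, mostly in CG dinucleotides, by the DNMT enzymes, and TET enzymes oxidize it to 5hmC as a step toward its removal. CG-dense islands at gene starts are usually free of 5mC, whereas the bodies of genes and repeats usually carry it. In MeDIP an antibody pulls down sheared DNA that carries the mark, so a count reflects how much marked DNA was captured and not the percentage of methylated cytosines.

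The 5mC list was already limited to regions with a difference between the states. It held 65535 regions sorted by p-value, with a largest deposited p of 0.0165, and these were 19.9% of the 328588 regions that the deposited adjusted p-values imply. With its header the file ends at 65536 lines, the row limit of older spreadsheet formats, so whether 0.0165 was a chosen threshold or only where the file ends is not known. Of these regions, 35486 fell to genes. Counts in them summed to between 2208400 and 3009646 per library, which was 36.3 to 36.5% of the listed counts in undifferentiated and 31.0 to 31.4% in differentiated libraries. Because regions were chosen on this contrast, a p-value per gene describes the list and carries no correction for that choice, and genes without a listed region are not described. Values of genes are depth-scaled counts (CPM, relative to the summed gene counts of a library) after scaling by the trimmed mean of M values (TMM). The CPM of start regions and the CPM per kb of regions are instead relative to all listed counts of a library, with TMM of the region counts. They are therefore not on the same scale as the CPM of genes. Scaling by the totals of all listed counts instead lowered the median log2 fold change over all genes from 0.00 to −0.31. Under that scaling 1405 genes were higher and 6835 lower, in place of 5186 and 5461. Directions are therefore relative to the scaling, and 5mC directions that the totals change are given beside each result. Region by region, fold changes under TMM of the region counts, with the sign turned to differentiated over undifferentiated, differed from those in the authors' deposited table by a median of 0.00313 (log2), and those under the totals by 0.258. The calls per gene use TMM of the summed gene counts instead, so this match does not extend to them.

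Listed regions that lay over a gene start are given here beside the promoter sequence of the same gene. The 6 promoters printed here belong to the ranked genes whose start regions had the highest (BMPR1B, SCIN and RIT2) or lowest (HARBI1, GALNTL5 and CAPG) log2 fold changes, among 143 genes that changed in the same direction as a whole; they were chosen after the values were seen. Each holds the 250 bases before and 50 after the start, 5′ to 3′, from RefSeq's GRCh38.p14 table, with CG dinucleotides, the main sites of 5mC, in capitals. The windows were matched to genes by symbol and chromosome. Whether they overlap the hg19 regions was not checked, so they describe the promoter and not necessarily the captured DNA.
BMPR1B (chr4:94757705-94758004, plus strand): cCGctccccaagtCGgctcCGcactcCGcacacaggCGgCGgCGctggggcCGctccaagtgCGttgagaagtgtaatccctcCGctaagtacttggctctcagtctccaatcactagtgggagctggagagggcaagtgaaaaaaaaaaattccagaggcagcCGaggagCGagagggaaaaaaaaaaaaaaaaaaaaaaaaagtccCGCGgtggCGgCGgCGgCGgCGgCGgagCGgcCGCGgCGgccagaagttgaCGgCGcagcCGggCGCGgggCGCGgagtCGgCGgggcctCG
SCIN (chr7:12570470-12570769, plus strand): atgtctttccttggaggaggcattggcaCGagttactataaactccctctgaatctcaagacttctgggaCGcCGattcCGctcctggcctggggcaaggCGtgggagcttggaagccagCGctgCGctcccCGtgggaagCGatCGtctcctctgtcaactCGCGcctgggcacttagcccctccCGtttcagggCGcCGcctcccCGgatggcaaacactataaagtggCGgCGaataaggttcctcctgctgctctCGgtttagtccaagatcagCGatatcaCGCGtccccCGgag
RIT2 (chr18:43115636-43115935, minus strand): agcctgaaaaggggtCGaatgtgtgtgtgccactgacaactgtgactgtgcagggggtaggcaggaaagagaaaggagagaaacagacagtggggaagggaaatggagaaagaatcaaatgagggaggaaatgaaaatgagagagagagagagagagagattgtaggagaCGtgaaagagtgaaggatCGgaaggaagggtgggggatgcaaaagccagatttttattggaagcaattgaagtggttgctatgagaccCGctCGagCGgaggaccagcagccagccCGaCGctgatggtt
HARBI1 (chr11:46617178-46617477, minus strand): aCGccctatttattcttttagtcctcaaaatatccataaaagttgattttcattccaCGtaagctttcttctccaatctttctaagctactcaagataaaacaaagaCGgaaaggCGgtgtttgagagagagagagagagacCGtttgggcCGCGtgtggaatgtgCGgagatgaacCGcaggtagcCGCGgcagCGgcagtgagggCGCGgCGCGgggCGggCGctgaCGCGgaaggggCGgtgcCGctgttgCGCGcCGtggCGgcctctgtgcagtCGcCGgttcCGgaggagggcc
GALNTL5 (chr7:151956196-151956495, plus strand): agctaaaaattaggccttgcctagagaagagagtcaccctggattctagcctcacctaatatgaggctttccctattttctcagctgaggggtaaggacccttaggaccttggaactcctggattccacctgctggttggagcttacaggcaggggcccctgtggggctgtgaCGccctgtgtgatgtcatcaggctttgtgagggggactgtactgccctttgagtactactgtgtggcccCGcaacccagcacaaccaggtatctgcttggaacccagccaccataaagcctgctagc
CAPG (chr2:85413967-85414266, minus strand): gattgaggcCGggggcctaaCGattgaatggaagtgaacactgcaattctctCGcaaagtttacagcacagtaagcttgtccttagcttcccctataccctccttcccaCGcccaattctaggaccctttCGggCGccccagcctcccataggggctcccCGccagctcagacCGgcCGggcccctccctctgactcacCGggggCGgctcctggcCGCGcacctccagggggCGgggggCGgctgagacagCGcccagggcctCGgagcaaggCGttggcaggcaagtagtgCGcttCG
The CG counts of these windows are 34 for BMPR1B, 23 for SCIN, 8 for RIT2, 29 for HARBI1, 2 for GALNTL5 and 20 for CAPG, so CG-rich and CG-poor windows occur on both sides.

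BMPR1B encodes a receptor for bone morphogenetic proteins. Its start region (chromosome 4, 95679801 to 95680200, hg19, in a CpG island) held 1.75, 1.35 and 2.16 CPM in replicates 1, 2 and 3 of undifferentiated cells, against 5.29, 3.44 and 3.20 CPM in those of differentiated cells. All differentiated libraries were above all undifferentiated ones, and the log2 fold change was 1.18 (SE 0.281). The island region at the start of SCIN, which encodes the actin-severing protein scinderin, held 2.83, 3.75 and 1.59 CPM before and 4.62, 6.33 and 5.49 CPM after differentiation. The start region of RIT2, a RAS-like GTPase gene of neurons, held 6.20, 4.96 and 6.63 CPM before and 10.0, 14.0 and 9.60 CPM after. In both genes the states did not overlap.
At HARBI1, which is derived from a transposase, the start region held 3.37, 4.96 and 3.46 CPM in undifferentiated and 2.03, 1.24 and 1.83 CPM in differentiated libraries. The start region of GALNTL5, a glycosyltransferase-like gene, went from 5.52, 5.56 and 6.20 CPM to 2.14, 2.34 and 3.54 CPM. That of CAPG, which encodes an actin-capping protein of macrophages, went from 2.56, 4.51 and 3.61 CPM to 2.14, 1.10 and 2.06 CPM. These are counts of small regions, relative to all listed counts, and no test of a region is given because the regions were selected for a difference. Over all their regions, the genes changed by 0.60 (BMPR1B), 0.54 (SCIN), 0.32 (RIT2), −0.41 (HARBI1), −0.44 (GALNTL5) and −0.68 (CAPG) on the log2 scale, and under the totals RIT2 was at 0.01 and no longer called. Among 1151 genes with a listed region over their start, 839 had that region (the one of largest change where there were several) higher and 312 lower. The start region lay in a CpG island in 31.2% of the former and 11.2% of the latter. Promoter sequences were matched by symbol for 621 of these genes. Their median CG count was 16 where the region was higher (435 promoters) and 21 where it was lower (186 promoters), against 14 over all 27305 promoters in the table, 95.8% of which hold a CG.

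Across all genes, 84.3% were called in either direction, 41% higher and 43.2% lower, and 77.8% had no overlap between the libraries of both states. Among the 4645 ranked genes, 1836 were higher in differentiated cells, 1606 were lower and 1203 did not pass the threshold (an adjusted p of 0.05 in the quasi-likelihood test of edgeR, adjusted over all 12637 genes, with 3 libraries per state). In 3436 of them (74.0%) no library of a state reached the range of the other. With the totals, 604 ranked genes were higher and 2721 lower. Higher calls thus made up 53.3% of ranked calls under TMM and 18.2% under the totals, while DESeq2's Wald test gave 52.7%. With TMM factors taken from the region counts in place of the gene counts, 1632 ranked genes were higher and 1805 lower. Higher calls then made up 47.5%, so which direction was more frequent changed with the choice of factors. Just below the ranking limit, genes with 2 regions were 30.6% higher and 39.5% lower, and genes with 3 regions were 36.1% higher and 33.8% lower. Under the totals 341 genes with 2 regions were higher and 1287 lower, and with 3 regions 164 and 895. At the edge of the window, 34.4% of 751 regions in its outermost 1000 bases were higher, and 32.8% of 702 regions in the next 1000 bases outside it.

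Most ranked genes held regions that moved in opposite directions. All listed regions were higher in 463 of the 1836 higher genes (25.2%), and all were lower in 909 of the 1606 lower genes (56.6%). In all, 3273 of the 4645 ranked genes held regions of both directions. This difference was not tested, since the regions were selected on the same contrast.

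The largest rises among ranked, called genes chosen for states that did not overlap were found in ACN9 and MID1. ACN9 (chromosome 7, listed regions from 96746201 to 96798800, hg19), an assembly factor of mitochondrial succinate dehydrogenase, held 13.7, 10.6 and 15.6 CPM before and 20.7, 33.7 and 28.0 CPM after differentiation, in replicates 1, 2 and 3. The states did not overlap, and the rise was 1.02 in log2 (SE 0.169, adjusted p = 3.11e-07 by edgeR). MID1 (chromosome X), which encodes a microtubule-associated ubiquitin ligase, held 16.8, 19.2 and 15.6 CPM before and 36.6, 30.3 and 35.9 CPM after differentiation, so that every differentiated library was well above the undifferentiated ones. Its log2 fold change was 1.00 (SE 0.144, adjusted p = 6.17e-09).
CYP4F11 (chromosome 19, 16031601 to 16045000), a cytochrome P450 gene for fatty acid hydroxylation, had the smallest error of this group. It held 98.5, 89.1 and 86.3 CPM in undifferentiated and 159, 167 and 175 CPM in differentiated libraries, and rose by 0.87 (SE 0.0653, adjusted p = 4.18e-21). Of its 3 listed regions, all higher, 1 lay over its start. BFSP2, a lens filament gene, rose from 89.2 ± 8.80 to 157 ± 6.70 CPM (mean ± SD of 3 libraries). PAPPA, which encodes a metalloproteinase that cleaves proteins binding insulin-like growth factors, rose from 28.1 ± 1.97 to 49.1 ± 5.48 CPM. The other rises of this group, between 0.79 and 0.94, were in RNU5E-1, TM6SF1, FRMPD4, NDST4, FAM172A, PARVG and JAKMIP2. PARVG encodes a parvin that links integrins to actin in blood cells, and NDST4 an enzyme that sulfates heparan. RNU5E-1, a spliceosomal RNA gene, shares 2 of its 3 listed regions with RASGRF2, so most of its regions are not its own. All 12 genes held 3 or 4 listed regions, all of them higher.

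The largest falls were of similar size and included the surface protein genes CD86 and TYRO3. RAVER2 (chromosome 1, 65209601 to 65289800), which encodes an RNA-binding protein, held 24.2, 23.4 and 30.6 CPM in undifferentiated and 12.7, 14.5 and 9.25 CPM in differentiated libraries. Its log2 fold change was −1.11 (SE 0.171, adjusted p = 4.15e-08). CD86 (chromosome 3, 121806801 to 121834800), the costimulatory ligand with which antigen-presenting cells activate T cells, held 27.7, 28.0 and 27.8 CPM before and 12.9, 14.8 and 11.5 CPM after, and fell by 1.10 (SE 0.160, adjusted p = 1.05e-08). The undifferentiated libraries were nearly equal in CD86, and the highest differentiated library was far below them.
TYRO3, a receptor of the family with which phagocytes take up dying cells, held 25.7, 27.0 and 28.2 CPM in undifferentiated and 11.8, 11.4 and 16.0 CPM in differentiated libraries. MXI1, which encodes an antagonist of MYC that pairs with MAX, held 33.7, 43.6 and 34.3 CPM before and 20.1, 15.2 and 21.9 CPM after, with 4 of 4 regions lower. B4GALT1, the galactosyltransferase gene that also serves lactose synthesis, fell from 43.3 ± 2.00 to 22.5 ± 3.45 CPM. The remaining genes of the group were ST8SIA2, SLC22A16, DDHD2, CNRIP1, DCP1A, USP47 and DNAH14, with log2 fold changes of −1.06 to −0.94. ST8SIA2 encodes a polysialyltransferase, SLC22A16 a carnitine transporter, and DCP1A a factor of messenger RNA decapping. None of the 12 genes held a listed region that was higher. All 24 rises and falls also passed in the same direction under the totals and without any 1 library. They were chosen as the largest called changes without overlap, so this follows largely from the choice and is no separate support.

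**Figure D1:**
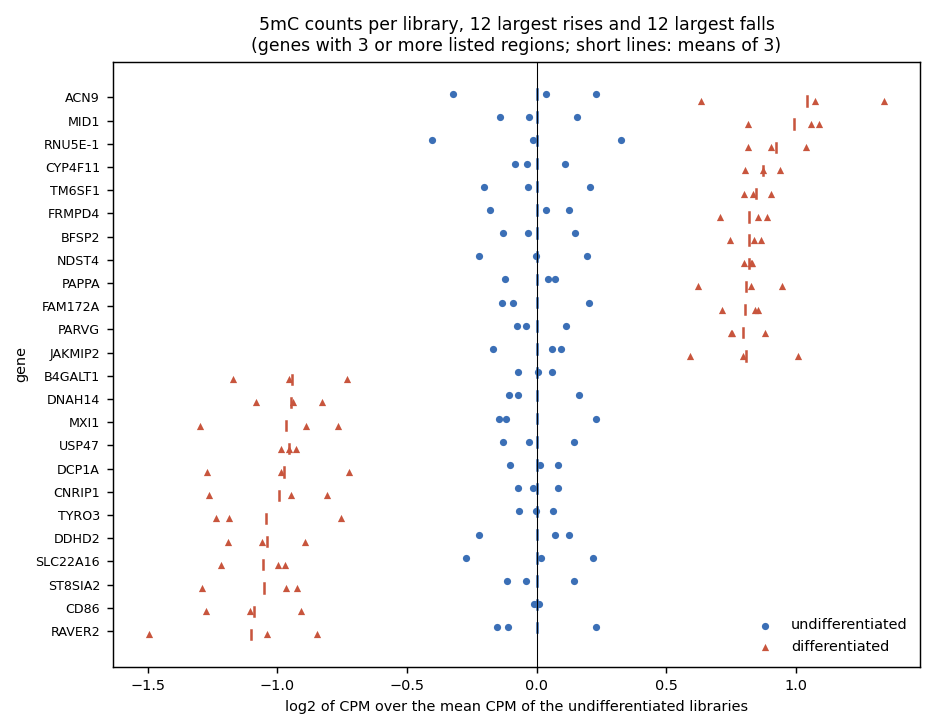
Log2 of CPM over the mean CPM of the undifferentiated libraries, 1 row per gene, for the 12 largest rises and the 12 largest falls among genes with 3 or more listed regions; circles are undifferentiated and triangles differentiated libraries, and short lines are means of 3. The genes were chosen among those whose states do not overlap, so the plot shows the size of the gap and the spread of the 3 libraries.

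Genes with more than 20 listed regions were mostly higher. Of the 75 genes with more than 20 listed regions, 60 were higher and 10 lower, with a median log2 fold change of 0.41, and under the totals 41 were higher and 20 lower. Among 363 genes with 11 to 20 regions, 51.8% were higher and 31.1% lower, but under the totals 87 were higher and 195 lower. Among 1491 genes with 4 or 5 regions, 34.8% were higher and 38.5% lower (152 and 925 genes under the totals). Under the totals the medians were 0.10 for the genes with more than 20 regions and −0.32 for those with 4 or 5. Gene lengths in this genome build were not used here, and their part in the number of regions was not tested.
PTPRN2, a receptor tyrosine phosphatase-like gene of dense-core vesicles in neurons and endocrine cells, held 102 listed regions (chromosome 7, 157335601 to 158378000), of which 99 were higher and 26 lay in CpG islands. It held 6042, 6410.3 and 6232 CPM in undifferentiated and 8957, 8888 and 9201 CPM in differentiated libraries. Its log2 fold change was 0.53 (SE 0.0279, adjusted p = 4.88e-31), and 0.22 under the totals.
CSMD1, which encodes a complement regulator with many repeated domains, rose from 936 ± 35.0 to 1382 ± 41.5 CPM, with 64 of 70 regions higher. CDH4, a cadherin gene of neurons and retina, rose from 1623 ± 9.70 to 2297 ± 45.8 CPM, with 54 of 55 regions higher. Rises of 0.43 to 0.53 were also found in TRAPPC9, AGAP1, RBFOX1, WWOX and PARK2, with 42 to 60 regions each. RBFOX1 encodes a splicing factor of neurons, and WWOX and PARK2 are very long genes at fragile sites. Each of these 8 genes stayed higher under the totals, at log2 fold changes of 0.12 to 0.25. OPCML, an adhesion molecule gene of neurons, was higher in each of its 35 regions. It held 438, 419.7 and 452 CPM in undifferentiated and 720.2, 675 and 719 CPM in differentiated libraries (log2 fold change 0.69, SE 0.0394, adjusted p = 1.15e-28).

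In some long genes the regions moved in opposite directions and the sum hid it. CAMTA1, a calmodulin-binding transcription factor gene, had 24 of 41 regions higher, with region log2 fold changes from −1.10 to 0.94. Its sum did not pass (0.07, adjusted p = 0.0523), and its libraries overlapped at 1932, 1656 and 1679 CPM before and 1747, 1871 and 1925 CPM after. It was called higher without undifferentiated replicate 1 (0.15, adjusted p = 0.00018 by edgeR), without differentiated replicate 1 (0.11, adjusted p = 0.0046) and with the replicate number as a block (0.07, adjusted p = 0.0398). DLGAP1, a postsynaptic scaffold gene, had 21 of 40 regions higher. Its sum was higher by 0.12 (SE 0.0348, adjusted p = 0.00214) under TMM, and lower under the totals (−0.19). BCAS3 (14 of 30 regions higher) was likewise called higher at 0.16 under TMM and lower at −0.15 under the totals. FHIT (11 of 22) and DAB1 (11 of 21) did not pass under TMM, at 0.08 and 0.02, and were lower under the totals, at −0.23 and −0.29. Without the region of most counts, CAMTA1 (0.28), FHIT (0.16) and DAB1 (0.26) were called higher under TMM. The calls of these 5 genes thus changed with the scaling, and those of CAMTA1, FHIT and DAB1 also with the regions included.

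**Figure D2:**
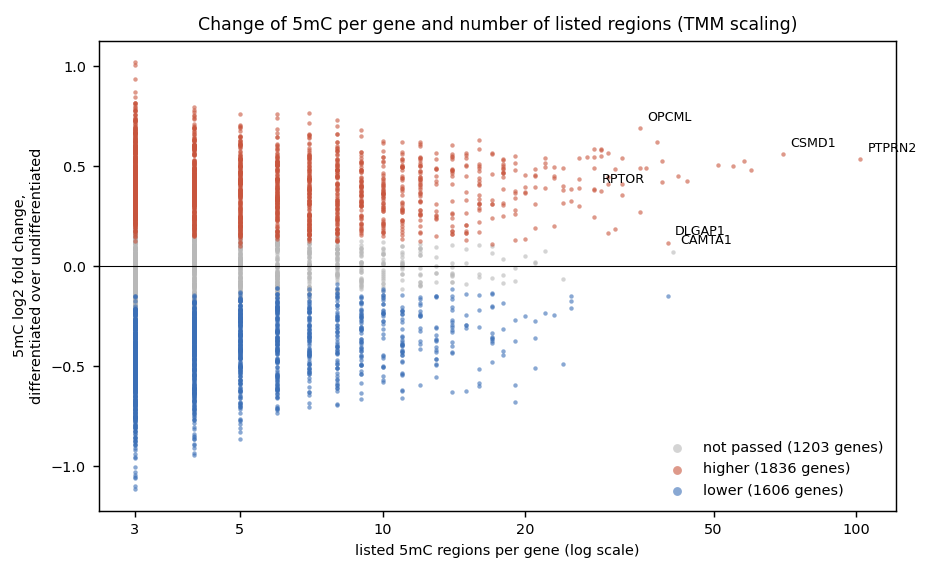
The 5mC log2 fold change (differentiated over undifferentiated, TMM scaling) of each of the 4645 ranked genes against its number of listed regions on a log axis, coloured by call. Genes with few regions spread from −1.11 to 1.02, whereas most genes with more than 20 regions lie above 0, PTPRN2 with 102 regions at 0.53.

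The direction of a region went with its CpG context and with the density of counts in it. Of the 26285 listed regions in ranked genes, 47.6% were higher in differentiated cells. In CpG islands 542 of 610 were higher (88.9%), in shores within 2000 bases of an island 53.3% of 1352, and elsewhere 46.2% of 24323. Split into quintiles by mean CPM per kb of region, 36.1, 35.7, 38.2, 52.6 and 75.2% were higher, from the least to the most dense. Outside islands and shores the densest quintile was 74.2% higher and the least dense 35.3%. Regions over a gene start were higher in 71.3% of 401 cases, those up to 1000 bases upstream in 57.3% of 354, and those farther upstream in the window in 36.6% of 1424. Under the totals 80.8% of island regions, 52.6% of shore regions, 45.9% of the others, 74.3% of the densest quintile and 69.6% of regions over a start were higher. Over all these regions the share was then 47.1%. Regions selected for a difference seldom change sign with the scaling, so the likeness of both scalings is no separate support.
The same held for whole genes. Ranked genes that were higher had a median of 19.6 CPM per kb of listed sequence, those that were lower 16.3, and those that did not pass 17.6. At least 1 island region was held by 346 of the 1836 higher genes (18.8%), by 51 of the 1606 lower genes (3.18%) and by 79 of the 1203 others (6.57%). These patterns were found after the values were seen and are given without a test. Capture by the antibody also depends on CpG density and on copy number, and no input library was used here, so the part of either was not tested.

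**Figure D3:**
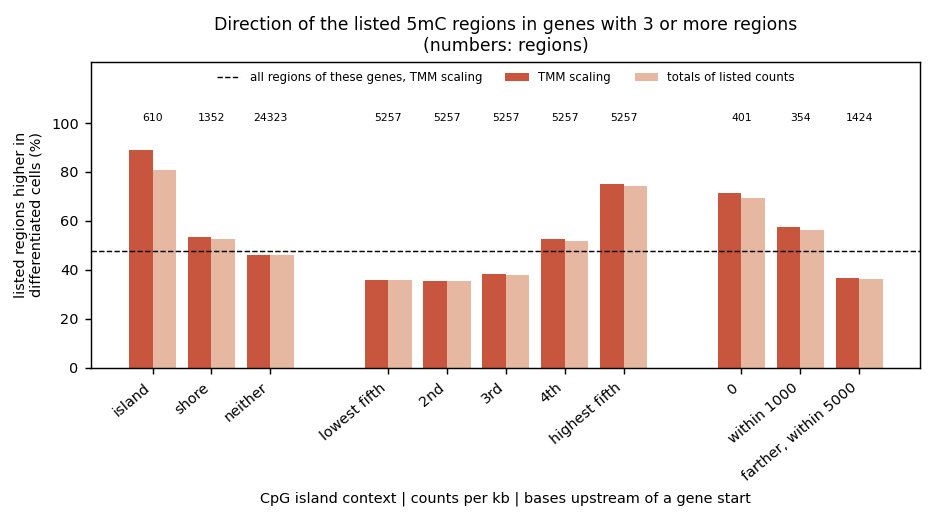
Percentage of listed 5mC regions higher in differentiated cells, in ranked genes, by CpG island context, by quintile of counts per kb and by distance upstream of a gene start; dark bars use TMM, light bars the totals of listed counts, the numbers are regions and the dashed line is the share over all regions (47.6%). Island regions (88.9%) and the densest quintile (75.2%) stand above the line under both scalings. Regions selected for a difference seldom change sign with the scaling, so this is no separate support.

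By chromosome, ranked genes were most often higher on X (27 higher and 4 lower of 37), 13 (76 and 21 of 122) and 8 (121 and 26 of 197), with median log2 fold changes of 0.43, 0.31 and 0.26. They were most often lower on 17 (45 and 102 of 190), 22 (28 and 55 of 108) and 1 (115 and 252 of 488), with medians of −0.22, −0.19 and −0.19. The median 5hmC log2 fold changes of the same genes were 0.11, 0.07 and 0.08 on the former and −0.19, −0.14 and −0.10 on the latter. Under the totals X alone of these 6 had more genes higher (16) than lower (7). Copy number was not measured separately.

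The window upstream of a gene and its body could be compared within a library, so that this comparison does not rest on scaling. Of 2317 genes with listed regions in both parts, 971 (41.9%) differed between them in their change: the window moved up relative to the body in 487 genes (21%) and down in 484 (20.9%), by an interaction test in edgeR with the library as a block. Every region in both parts was selected for a difference between the states. Parts of opposite direction therefore largely had to differ, and these p-values carry no correction for that choice. The largest differences were in genes with 1 or 2 regions in each part. In BAG1, which encodes a cochaperone of HSP70 that restrains apoptosis, the upstream window held 6.36, 5.32 and 6.11 CPM in undifferentiated and 12.4, 11.4 and 13.7 CPM in differentiated libraries. Its body held 14.6, 18.4 and 19.0 CPM before and 9.36, 8.08 and 7.01 CPM after. Both parts separated the states completely, in opposite directions, and the window exceeded the body by 2.15 in log2 fold change (SE 0.316, adjusted p = 4.69e-08). The window region, 1242 bases upstream of the BAG1 start, also lay inside an annotated gene, so it is not upstream sequence alone.
GAD1, the glutamate decarboxylase gene of inhibitory neurons, showed the reverse. Its window held 11.1, 8.87 and 8.49 CPM before and 4.96, 4.38 and 6.17 CPM after, and its body 6.68, 6.39 and 5.77 CPM before and 13.5, 17.2 and 13.5 CPM after (difference −2.07, SE 0.351, adjusted p = 9.89e-07). The window also rose relative to the body in FSIP2 (2.24), OPA1-AS1 (2.00) and CRTAM (1.91), and fell relative to it in VWA2 (−2.06), TXNDC8 (−1.87), LOC100134259 (−1.84) and PLCG1 (−1.83). CRTAM encodes an adhesion molecule of cytotoxic lymphocytes, and PLCG1 a phospholipase C activated by growth factor and antigen receptors. With a window of 2000 bases only 1265 genes had regions in both parts, and the window moved up in 318 and down in 202 of them.

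Gene groups were read against the shares over all genes, 41% higher and 43.2% lower. Counts under the totals are to be read against 1405 higher and 6835 lower of all 12637 genes. Of the 5372 genes with 1 listed region, 47.4% were higher, 52.5% lower and only 4 did not pass, since each region was selected for a difference. Under the totals 460 of them were higher and 2827 lower. Groups made mostly of such genes are to be read against these shares. Among them are histone (all 22 genes), HOX (10 of 11), olfactory receptor (33 of 39) and developmental factor genes (32 of 49). Genes of nervous system wiring stood mostly on the higher side under TMM. Of 82 axon guidance and synaptic adhesion genes with a listed region, 63 were higher, 7 were lower and 12 did not pass, with a median log2 fold change of 0.38, against 0.00 over all genes. UNC5C, a netrin receptor gene, rose by 0.64 with 5 of 6 regions higher, and EPHA10, an ephrin receptor gene, fell by 0.46. Under the totals 23 of the 82 were higher and 16 lower, with a median of 0.07 against −0.31 over all genes. Among 22 glutamate receptor genes 13 were higher and 1 was lower (3 and 6 under the totals). GRIK2, a kainate receptor subunit gene, rose by 0.78, and GRIN1, with 1 region, fell by 0.70. GRIN1 did not pass without undifferentiated replicate 1 (−0.57, adjusted p = 0.0912), without differentiated replicate 1 (−0.57, adjusted p = 0.0754) or in DESeq2 (−0.70, adjusted p = 0.0753). Of the GABA receptor genes, which encode the main inhibitory channels of the brain, 7 of 13 were higher and 3 lower (4 and 5 under the totals).
Of 38 clustered protocadherin genes, 28 were higher and 2 lower (10 and 9 under the totals). They are not independent, since their long overlapping transcripts shared regions and formed 22 distinct sets. PCDHGA1 rose by 0.50, and 8 of its 11 regions lay in CpG islands. PCDH7, outside the clusters, rose by 0.62. Of 19 receptor tyrosine phosphatase genes 13 were higher and 2 were lower (2 and 4 under the totals). Beside PTPRN2, PTPRM rose by 0.38 (0.07 and not called under the totals). In the 2 lower genes, PTPRA, which activates SRC kinases, fell by 0.58, and PTPRJ by 0.49. Among 63 potassium channel genes 34 were higher and 15 lower (9 and 22 under the totals). KCND2 rose by 0.61 with 5 of 5 regions, and KCNAB1, a channel subunit gene, fell by 0.69 with 8 of 8 regions lower.

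Groups of developmental regulators and matrix genes differed among themselves. Of 49 developmental transcription factor genes outside the HOX clusters, 31 were higher and 12 lower (6 and 16 under the totals). DMRT1, a factor of testis development, rose by 0.69 in 4 of 4 regions. Forkhead genes were evenly divided, 6 higher and 6 lower of 15, as were T-box genes, 2 and 2 of 7, and of 6 SOX genes 5 were higher and 1 lower (1 and 7, 1 and 3, and 0 and 2 under the totals). Of 11 HOX genes 10 were higher and HOXD3 was lower (0 and 1 under the totals). HOXA3, the only HOX gene with 3 regions, rose by 0.38, which was 0.07 and not called under the totals. Histone cluster genes, each with 1 listed region, were higher in 21 of 22 (5 higher and 1 lower under the totals), and some of them share a region. Over all genes with 1 region 47.4% were higher and 52.5% lower. HIST1H2AL held 25.7, 24.1 and 24.8 CPM before and 41.3, 47.5 and 45.1 CPM after. HIST1H4B rose by 0.98 and HIST2H2AC fell by 0.94. Histone copies resemble each other closely, so reads could have been assigned to the wrong copy. Among 35 collagen genes 22 were higher and 8 lower (9 and 11 under the totals), such as COL15A1 at 0.57 and COL4A4 at 0.57, against COL19A1 at −0.75. Laminin genes, which encode basement membrane proteins, were 3 higher and 3 lower of 9 (1 and 4 under the totals), and ADAMTS protease genes 10 and 5 of 19 (6 and 8 under the totals).

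**Figure D4:**
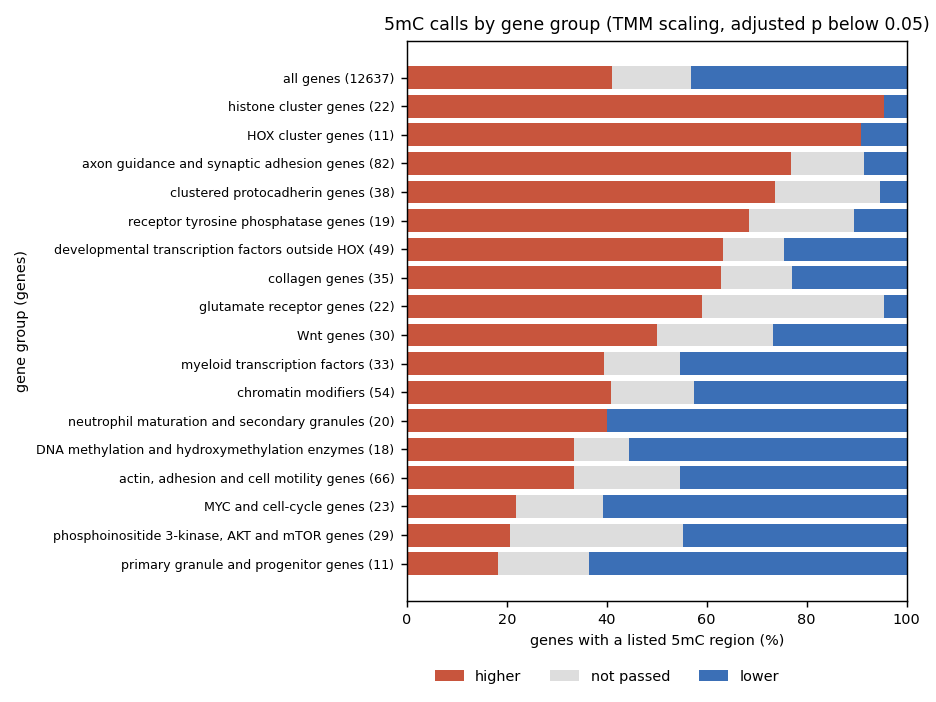
Share of genes called higher (red), lower (blue) or not passed (grey) in 5mC per gene group under TMM scaling, among genes with a listed region, whose number stands in brackets; the top bar gives all 12637 genes. Histone, HOX and axon guidance groups are mostly higher. The primary granule, phosphoinositide 3-kinase and cell-cycle groups are mostly lower or not passed. Under the totals 5 of 22 histone, 0 of 11 HOX and 23 of 82 axon guidance genes were higher. All 22 histone and 10 of 11 HOX genes held 1 listed region, and over all such genes 47.4% were higher and 52.5% lower.

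Myeloid genes leaned lower or were divided. ITGAM encodes the CD11b chain used for the sort. It held 196, 215 and 203 CPM in undifferentiated and 238, 224 and 223 CPM in differentiated libraries, and was called higher by 0.16 (SE 0.0513, adjusted p = 0.00423) under TMM but lower by 0.15 under the totals. Without its region of most counts it was at 0.12 and did not pass (adjusted p = 0.142). Its 5 regions were divided, with both upstream regions lower (−0.47 and −0.56), 1 body region lower (−1.08) and 2 wider body regions higher (0.28 and 0.25). Of 20 neutrophil maturation and granule genes, 8 were higher and 12 lower (3 and 13 under the totals). ALOX5, which starts leukotriene synthesis, rose by 1.04 in 2 regions, whereas PTAFR, the receptor for platelet-activating factor, fell by 0.52 and ITGAL, an integrin chain, by 0.39. Without its region of most counts PTAFR was at −0.18 and did not pass (adjusted p = 0.086).
Of 11 primary granule and progenitor genes, 2 were higher and 7 lower (0 and 8 under the totals). MPO, the myeloperoxidase gene, had 1 listed region, 4505 bases upstream of its start, which held 28.3, 30.9 and 23.8 CPM in undifferentiated and 19.3, 12.5 and 20.2 CPM in differentiated libraries. NUCB2 fell by 0.69 and TFRC, the transferrin receptor gene, by 0.81. TFRC without the region of more counts among its 2 was at −0.42 and did not pass (adjusted p = 0.0737). Among 12 monocyte and macrophage genes 2 were higher and 6 lower (0 and 8 under the totals), such as CD86 and AXL (−0.51), a receptor gene of the TYRO3 family. Myeloid transcription factor genes were divided, 13 higher and 15 lower of 33 (4 and 21 under the totals). ETS1 rose by 0.66 and IRF4 by 0.60. CBFB, the partner of the RUNX factors, fell by 0.54 in 7 of 7 regions, and CBFA2T2, a corepressor gene of the ETO family, by 0.45 in 5 of 5.
Genes that mark other blood lineages were mixed as well. Of 22 lymphoid genes 7 were higher and 11 lower (3 and 13 under the totals). BCL11B, a T-cell factor, rose by 0.46 in 8 of 8 regions and EBF1, a B-cell factor, by 0.41 (0.10 and not called under the totals). Of 12 erythroid and megakaryocyte genes 4 were higher and 6 lower (0 and 7 under the totals). EPB41, a membrane skeleton gene, held 312, 295 and 299.9 CPM before and 208, 237 and 223 CPM after, with 11 of 11 regions lower. SLC4A1, the anion exchanger gene of red cells, fell by 0.46.

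Genes of the methylation machinery were lower more often than higher, 10 against 6 of 18 (12 against 1 under the totals). TET1, one of the oxidases, held 62.6, 52.2 and 50.9 CPM in undifferentiated and 34.1, 36.0 and 30.0 CPM in differentiated libraries, with 5 of 5 regions lower (log2 fold change −0.74, SE 0.110, adjusted p = 1.93e-08). TET2, which is often mutated in myeloid leukemia, held 44.2, 48.3 and 43.5 CPM before and 26.2, 28.3 and 27.5 CPM after, with 3 of 3 regions lower (−0.73, SE 0.119). In both genes every differentiated library was below every undifferentiated one. DNMT3A, a de novo methyltransferase gene, went the other way under TMM, from 201 ± 4.31 to 253 ± 8.84 CPM, with 5 of 8 regions higher (0.33), but was at 0.02 and not called under the totals. UHRF2, a reader of modified cytosines, rose by 0.57 in 3 of 3 regions and by 0.26 under the totals.
Of 54 chromatin modifier genes 22 were higher and 23 lower (8 and 30 under the totals). EZH2, the methyltransferase gene of the polycomb complex, fell by 0.77 in 4 of 4 regions and CBX7, another polycomb gene, by 0.70 in 3 of 3. CHD7 rose by 0.58 and SMARCA2 by 0.58, the latter not called under the totals (0.27). MYC lay in a single listed region of 83.0 kb (chromosome 8, 128689001 to 128772000), which fell from 4942 ± 182 to 3522 ± 353 CPM. This count covers far more than the gene, and the part of copy number in it was not tested. Of 23 MYC and cell-cycle genes 5 were higher and 14 lower (3 and 16 under the totals). RBL1 and RBL2, relatives of the retinoblastoma gene, fell by 0.46 and 0.58. MKI67, the proliferation marker gene, rose by 0.49 in 4 of 4 regions, and CDK4, with 1 region in which the states overlapped, by 0.83.

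Signaling genes held members on both sides. Of 29 phosphoinositide 3-kinase, AKT and mTOR genes 6 were higher, 13 lower and 10 not passed (1 and 21 under the totals). GAB2, an adaptor that recruits the kinase, held 108, 110.0 and 124 CPM in undifferentiated and 76.0, 67.0 and 76.8 CPM in differentiated libraries, with 9 of 9 regions lower (−0.63, SE 0.0755). FOXO3, a transcription factor restrained by AKT, fell by 0.65. RPTOR, the scaffold of mTOR complex 1, held 1190.5, 1161 and 1212 CPM before and 1544, 1546 and 1550.4 CPM after, with 27 of 28 regions higher (0.38), which was 0.07 and not called under the totals. RPS6KA2, a ribosomal S6 kinase gene, rose by 0.39 with 23 of 25 regions higher.
Of 29 RAS and MAP kinase genes 12 were higher and 9 lower (5 and 15 under the totals). SOS1, the exchange factor that loads RAS, was lower in 6 of 6 regions (−0.60), and MAP3K4 rose by 0.70. Of 52 calcium channel, phospholipase C and protein kinase C genes 22 were higher and 17 lower (7 and 28 under the totals). NFATC3, a transcription factor switched on by calcium, fell by 0.50 in 10 of 10 regions and PLCE1 by 0.74, while the channel subunit gene CACNB2 rose by 0.61. Among 30 Wnt genes 15 were higher and 8 lower (5 and 15 under the totals), such as VANGL1 (0.71) and the inhibitor gene DKK2 (0.65) against LEF1 (−0.96, 1 region), a transcription factor of the pathway.
Among 17 Notch genes 8 were higher and 6 lower (2 and 10 under the totals), the ligand gene JAG1 at 0.53 and the receptor-cleaving protease gene ADAM10 at −0.42. Among 37 TGF-beta and BMP genes 17 were higher and 12 lower (6 and 20 under the totals), with SMURF1, which marks proteins of the pathway for degradation, at 0.71 although its states overlapped. Of 36 cytokine receptor, JAK and STAT genes 14 were higher and 16 lower (2 and 22 under the totals): JAK1 rose by 0.58 in 4 of 4 regions, and the receptor genes IFNAR2 and IL12RB2 fell by 0.63 and 0.62 in 4 of 4 regions each. Of 66 actin, adhesion and motility genes 22 were higher and 30 lower (6 and 42 under the totals). FGR, a SRC-family kinase of myeloid cells, and VAV3, a guanine nucleotide exchange factor, fell by 0.87 and 0.86, and CYFIP2, part of the WAVE actin complex, rose by 0.65. ARHGEF7, an exchange factor for RAC, was higher in 18 of 18 regions (0.51, SE 0.0406, and 0.20 under the totals).

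The remaining groups are given by their counts. In the NF-kB and toll-like receptor group of 25 genes, 15 were higher and 9 lower (2 and 11 under the totals), and of 7 eosinophil, basophil and mast cell genes 3 were higher and 3 lower (2 and 3 under the totals). Solute carrier genes were 100 higher and 102 lower of 239, with a median of −0.01, and numbered zinc finger genes 148 and 120 of 320 (22 and 128, and 38 and 149, under the totals). Of 39 olfactory receptor genes 27 were higher and 12 lower, and of 17 keratin genes 10 and 7 (6 and 12, and 4 and 7, under the totals). MicroRNA genes were 133 higher and 88 lower of 239 (29 and 104 under the totals). Tubulin polyglutamylase-like genes stood on the lower side, 2 higher and 7 lower of 10 (1 and 8 under the totals).

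The 5hmC libraries did not choose the 5mC list, but they came from the same DNA preparations, so a difference between preparations enters both marks. Over all 20404 genes with a listed 5hmC region, 51.6% were called, 25.7% higher and 25.8% lower, and 57.1% had no overlap between states. Of the 1836 ranked genes with higher 5mC, 970 were higher in 5hmC (52.8%) and 149 lower (8.12%). Of the 1606 with lower 5mC, 1076 were lower in 5hmC (67.0%) and 64 higher (3.99%). Median 5hmC log2 fold changes were 0.18 and −0.26, against 0.01 over all 5hmC genes. With the 5mC calls kept and 5hmC scaled by library totals, 249 genes were higher in both marks, 443 had higher 5mC with lower 5hmC and 2 had lower 5mC with higher 5hmC. The medians were then −0.03 and −0.46 against −0.19. The numbers of genes with opposite calls varied with the libraries included. Without undifferentiated replicate 1 they were 93 (5mC higher, 5hmC lower) and 34 (5mC lower, 5hmC higher), and 734 genes were higher in both marks. Without differentiated replicate 2 the opposite calls were 173 and 75. Genes with lower 5mC and higher 5hmC were 39 without undifferentiated replicate 3 or without differentiated replicate 1.
Among the 12 largest 5mC rises 8 genes were also higher in 5hmC, such as PAPPA (0.65, adjusted p = 1.73e-05) and BFSP2 (0.46), and 4 did not pass, ACN9 being at −0.17. Among the 12 largest falls 5 were lower in 5hmC, such as CNRIP1 (−0.65) and DDHD2 (−0.48), 3 were higher (ST8SIA2 at 0.20, SLC22A16 at 0.16 and B4GALT1 at 0.24) and 4 did not pass. The 5hmC values of single genes are given under TMM only. Scaling by library totals moved the median over all 5hmC genes from 0.01 to −0.19. CD86, with its fall of 1.10 in 5mC, was at 0.01 in 5hmC (adjusted p = 0.908), and RAVER2 was at −0.03. TET1 and TET2 were lower in both marks, at −0.26 and −0.24 in 5hmC. UHRF2, higher in 5mC, was lower in 5hmC (−0.26, adjusted p = 0.00339).

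**Figure D5:**
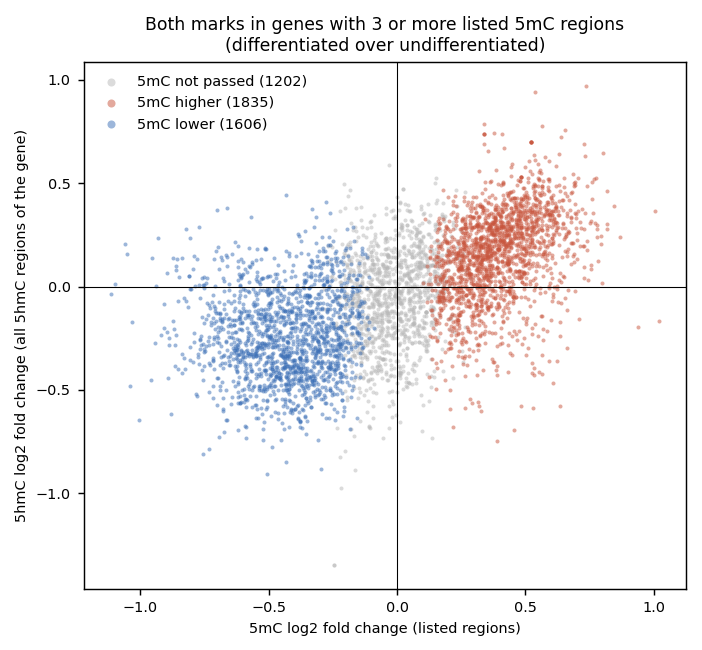
The 5hmC log2 fold change of each ranked gene (vertical) against its 5mC log2 fold change (horizontal), both differentiated over undifferentiated under TMM, coloured by the 5mC call. Genes with higher 5mC centre on 0.18 in 5hmC and genes with lower 5mC on −0.26, with wide spread around both.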

How the data were processed

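HL-60 cells of 2 states, with 3 replicates each, were read by MeDIP. The submitters' processing notes list edgeR 2.11, SICER 1.1, BWA, bedtools 2.17.0 and SAMtools 0.1.18, and the build GRCh37 (hg19). The authors deposited a table of regions with unnormalized read counts per library, and with a log2 fold change, a mean log2 CPM, a p-value and an adjusted p-value of their own; the p-values and log2 values served only to describe the list and, as an alternative, to filter it. Distances to genes, gene starts and CpG islands are given per the file headers, but the sources used here name neither their annotation nor whether libraries were pooled to call regions. The list ends at 65536 lines with its header.

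Counts were summed per symbol, names split at spaces, and a region of several genes (1840 regions) counted for each. Gene names turned into dates (59 body and 5 upstream regions) were not matched. No gene was removed by the low-count filter (filterByExpr). States were compared in R 4.3.3 with edgeR 4.0.16 (quasi-likelihood F test, TMM, Benjamini-Hochberg over 12637 genes, threshold 0.05), and SE is the fold change over the square root of F. DESeq2 1.42.0 was an alternative. Same-numbered libraries did not deviate together (correlations of −0.009 to 0.015), so no pairing was used. Between libraries, log CPM over listed regions correlated at 0.938 to 0.962 within and 0.803 to 0.825 between states, values that the selection of regions affects. No test relates gene groups to other genes. Named genes were the 12 largest rises and falls among ranked, called genes whose states did not overlap, the 10 with the most regions, up to 2 per group and direction, the 5 largest differences between window and body each way, the 5 longest lists of mixed regions, and ITGAM, MPO and MYC. Members and lists were chosen with earlier results of these data known. Fits were tested on simulated data. Some genes that this rule names are not reported here.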

Additional observations from a re-analysis of the deposited data

How the results depend on the processing

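Leaving out each library in turn gave 4872 to 4920 higher and 4655 to 4787 lower genes, 1718 to 1751 and 1538 to 1567 among ranked genes, 443 to 462 and 418 to 431 for the window against the body, and, for 5hmC in ranked genes, 734 to 988 higher in both marks, 927 to 1125 lower in both, 93 to 173 with 5mC higher and 5hmC lower, and 34 to 75 the other way. The 24 largest rises and falls, which were chosen for large changes without overlap, kept their calls in each case. Totals of all listed counts without TMM gave 1405 higher genes, 604 higher and 2721 lower ranked genes, 249 higher in both marks, 443 with 5mC higher and 5hmC lower, and 2 the other way; CAMTA1 (−0.24), DLGAP1 (−0.19), BCAS3 (−0.15), FHIT (−0.23), DAB1 (−0.29) and ITGAM (−0.15) turned negative. Totals of the summed gene counts without TMM, chosen after seeing the data, gave 4297 higher and 5992 lower genes, 1316 and 2091 ranked, and 35 genes with lower 5mC and higher 5hmC; DLGAP1 was at −0.012 and DAB1 at −0.11. DESeq2's Wald test gave 4408 and 3731 genes, and 81 and 34 opposite 5hmC calls. TMM factors from the region counts gave 4921 higher and 5676 lower genes, and 1632 and 1805 ranked. Without the region of most counts in each gene, 2657 genes were higher and 2561 lower among 7263 tested, and 949 ranked genes were lower. With regions of deposited adjusted p up to 0.01, 2704 were higher and 3407 lower of 6485 (520 and 344 ranked), and ITGAM was at −0.89. A minimum of 2 regions gave 2640 lower ranked genes, and a minimum of 5 gave 972 higher and 729 lower. A window of 2000 bases gave 318 and 202 genes, of 1265, in the comparison of window and body. The replicate number shared between states did not pair the libraries (5hmC correlations of same-numbered deviations −0.174 to −0.007); with it as a replicate block, 5186 and 5458 5mC genes were called, and 42 genes had lower 5mC and higher 5hmC. The cause of these shifts was not tested, beyond fewer regions or genes entering a fit. In 2095 of 2128 recomputed values of named genes, direction and side of the threshold were the same. True MeDIP depth was not analysed here, since only listed counts were.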
